A study of Homo sapiens with 8 samples.

Results

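The comparison described here is that of SW480 cells 48 h after transfection with siRNA targeting TCF7L2 against SW480 cells that received the negative control siRNA and are labelled 0 h. It uses 4 of the 8 libraries of the series, 2 at 0 h and 2 at 48 h. The other 4 libraries, 2 each at 24 and 72 h of the same siRNA, entered the estimate of the spread and the comparisons between times. SW480 is an established human line from a colorectal adenocarcinoma, and every group was SW480 grown in RPMI with serum and transfected with the lipid reagent RNAiMAX. Genes were taken where the abundance reached 1 TPM (a share of all transcripts, normalised for length) in at least 2 of the 8 libraries. This left 11894 of the 18656 symbols in the deposited table, and 6762 were not tested. Just inside that limit lay 119 genes, whose second-highest TPM was from 1 to under 1.1, and just outside it 133, from 0.9 to under 1.

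TCF7L2 is a DNA-binding protein of the TCF/LEF family, to which beta-catenin binds when the Wnt pathway is active. With beta-catenin these factors activate target genes, among them feedback inhibitors of the pathway, and without it they hold targets down together with corepressors. In the intestine the pathway keeps crypt cells dividing, and in most colorectal cancers, SW480 included, loss of functional APC leaves beta-catenin unchecked.

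Negative control siRNA was given to the 0 h libraries alone, and what TCF7L2 siRNA did and what 48 h of culture after transfection did cannot be told apart. The labels' protocol mentions 3 replicates, and 2 libraries a group were analysed. Nothing says that these 2 were separate cultures, so the p-values rest on a spread between libraries that may be technical. Depth is unknown because TPM keeps none. Across genes, the correlation between both libraries was 0.9954 at 48 h and 0.9959 at 0 h on the log2 scale, and TPM over the listed genes summed to between 464050.8 and 485601.5 in these 4 libraries. The second 72 h library stood apart, with a TPM sum of 352455.7 against 464493.2 for its replicate, a scaling factor of 0.818 against 1.048, and a correlation with it of 0.992, the lowest of the 4 groups. Both 72 h libraries entered the estimate of the spread. Without both of them, an alternative chosen after seeing the data, 3186 genes were called between 48 h and 0 h. The 10 markers chosen for a colon epithelial line summed to 3228 to 3250 TPM at 0 h and 4192 to 4232 TPM at 48 h. Most of this sum at 0 h came from KRT8 and KRT18, while CDH17 had 3.04 and 3.17 TPM there. In the first 0 h library 1 of the 10 was under 1 TPM. The 12 blood markers summed to 11.88 to 12.47 TPM at 0 h and 16.91 to 18.66 TPM at 48 h. Of these, 9 were under 1 TPM in each of the 4 libraries, PTPRC among them at 0.18 TPM or less. Of 3 blood markers tested, LYZ and CD68 were called higher at 48 h, and 1 was not called (log2 change -0.41). The 10 endothelial markers summed to 11.29 to 11.3 TPM at 0 h and 10.97 to 11.69 TPM at 48 h. Of these, 9 were under 1 TPM in each library, and KDR was listed at 0. In bulk RNA, fewer cells of a type and less RNA per cell cannot be told apart.

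At 48 h, 1350 genes were higher and 1433 lower than at 0 h (11.4% and 12% of all genes tested, 23.4% together) at an adjusted p under 0.05 in limma's moderated test. Most of these changes were small. The median log2 change was 0.41 among the higher genes and -0.36 among the lower, and 2318 of the 2783 called genes changed by less than 1.5-fold. At 2-fold or more 68 genes were higher (0.572%) and 8 lower (0.0673%), so the large changes lay mainly on the side of the rises. The median of all genes tested was -0.02, and the scaling factors of the 4 libraries were 1.055 to 1.067. In 30.7% of all genes both 48 h libraries had more TPM than both 0 h libraries, and in 35.3% less.

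The count of called genes differed between fits. With TPM as deposited, where the model gave each gene the spread of its expression level alone, 548 were higher (4.61%) and 374 lower (3.14%). When each library was rescaled to 1 common sum of TPM the split moved to 1065 higher and 2126 lower. Called both as scaled and as deposited with the same sign were 516 higher (4.34%) and 336 lower (2.82%), and the largest changes named below were taken from these. Leaving out 1 library, so that its group's lone sample was assumed to vary like the others, left 1367 and 1480 called genes without the first and second 0 h library, and 1516 and 1428 without the first and second 48 h library. In each of these 4 fits 979 genes were called, 537 higher and 442 lower. Where 4 values are given below as those without single libraries, they stand in that order. List members with the smallest p were named by rule, and members named here that were not called were chosen after their values were seen.

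**Figure D1:**
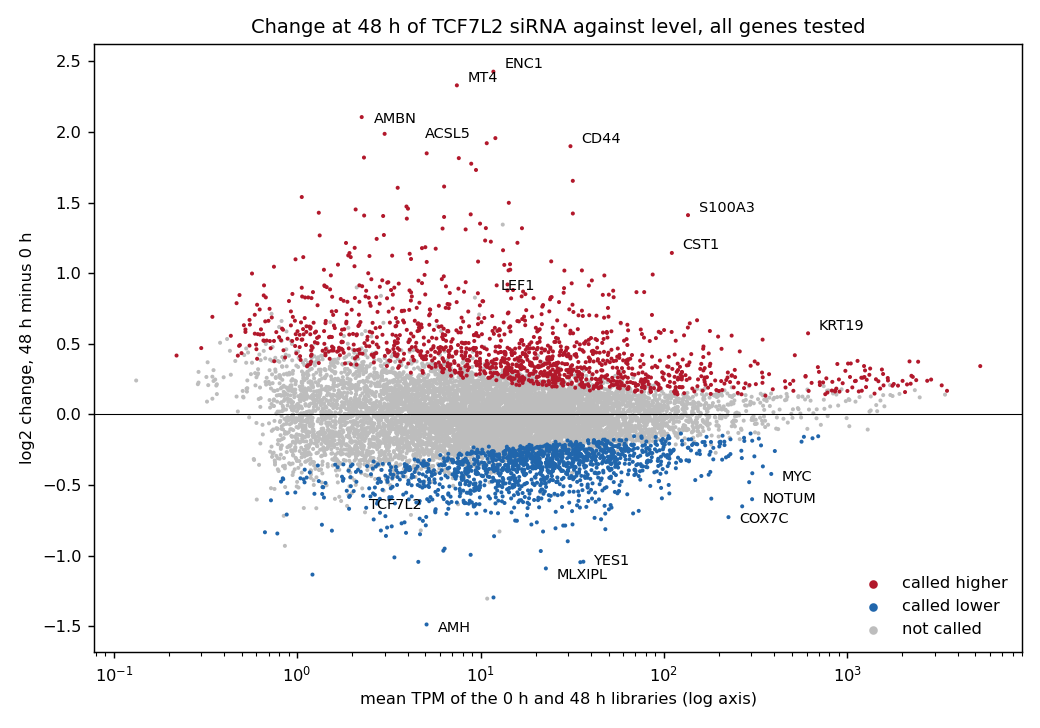
Log2 change at 48 h against 0 h (vertical axis) against the mean TPM of the 0 h and 48 h libraries (horizontal, log axis) for the 11894 genes tested, 1 point per gene. The 1350 called higher are red and the 1433 called lower blue. The points beyond 1 in size lie mostly above the line at 0.

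The targeted gene was read first. TCF7L2 had 6.86 and 7.47 TPM at 0 h and 4.92 and 4.07 TPM at 48 h, and the groups did not overlap (log2 change -0.57 ± 0.11, adjusted p = 0.00653). At 24 h it had 5.82 and 5.05 TPM and at 72 h 4.07 and 3.53. The 48 h level was therefore lower than that of the control in both libraries, and it did not differ from the 24 h level beyond the test (log2 change -0.31 ± 0.11, adjusted p = 0.0972). Without the second 48 h library the fall of TCF7L2 was -0.46 with an adjusted p of 0.0526.

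Among the other TCF/LEF factors, LEF1, which is itself induced by the pathway, had 20.1 and 14.7 TPM at 0 h and 33.4 and 29.6 TPM at 48 h and rose (log2 change 0.83 ± 0.13, adjusted p = 0.00258). Both 48 h libraries of LEF1 lay above both control libraries, which differed more from each other. TCF7, which is often a feedback target in the gut, had 8.79 and 8.49 TPM at 0 h and 8.68 and 8.3 TPM at 48 h (log2 change -0.02 ± 0.13, adjusted p = 0.914). TCF7L1, which encodes mostly a repressor, was below 1 TPM in every library and was not tested. CTNNB1, which encodes beta-catenin, rose from 529.7 and 544 TPM to 638 and 659 TPM (log2 change 0.27 ± 0.04, adjusted p = 0.00263). Of 10 tested factors and beta-catenin cofactors 2 were higher, 1 lower and 7 not called. CTNNB1 was not called with TPM as deposited (adjusted p = 0.409).

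Among the largest rises were genes of the cytoskeleton, cell surface and lipid handling. Others, such as MT4, AMBN and TNFRSF6B below, were of other kinds and rose more than all of these but ENC1. ENC1, an actin-binding kelch protein and known Wnt target, had 3.17 and 2.75 TPM at 0 h and 20.2 and 20.9 TPM at 48 h, which is 6.94 times the control TPM (log2 change 2.43 ± 0.11, adjusted p = 3.56e-06). CD44, the hyaluronan receptor of crypt base cells, had 12.8 and 12.1 TPM at 0 h and 45.6 and 53.3 TPM at 48 h (log2 change 1.899 ± 0.13, adjusted p = 3.06e-05). Its 2 libraries at 48 h were far above its 2 control libraries. ACSL5, which links coenzyme A to long-chain fatty acids and is abundant in gut, had 3.77 and 4.01 TPM at 0 h and 16.2 and 19.2 TPM at 48 h (log2 change 1.92 ± 0.09, adjusted p = 4.06e-06). DSC2, which encodes a desmosomal cadherin, had 3.26 and 3.63 TPM at 0 h and 14.4 and 14.3 TPM at 48 h (log2 change 1.77 ± 0.08, adjusted p = 4.06e-06). In all of these the groups were far apart relative to the difference between replicates.

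Several of the other large rises began from a low level at 0 h, as did those of ENC1, ACSL5 and DSC2 above. AMBN, an enamel matrix gene, had 0.62 and 0.53 TPM at 0 h and 5.18 and 5.67 TPM at 48 h (log2 change 1.99 ± 0.10, adjusted p = 6.98e-06), and the metallothionein gene MT4 had 1.89 and 1.56 TPM at 0 h and 10.7 and 15.6 TPM at 48 h (log2 change 2.33 ± 0.18, adjusted p = 6.4e-05). MT4 spread more between its 48 h libraries than the others. LMNTD1, a lamin tail domain gene, rose from 2.65 and 2.91 TPM to 12.7 and 12.2 TPM (1.81 ± 0.08), the secreted semaphorin gene SEMA3C from 3.48 and 4.12 TPM to 13.8 and 16.4 TPM (1.73 ± 0.11), and the stem cell factor gene SOX2 from 2.99 and 2.2 TPM to 10.4 and 9.74 TPM (1.61 ± 0.11). Because the scale is log2(TPM + 1), these log2 changes understate the change of low genes. Among genes of 100 TPM or more at 48 h, S100A3, a calcium-binding protein gene, was the largest rise, from 75.1 and 71.9 TPM to 198 and 197 TPM (log2 change 1.41 ± 0.05, adjusted p = 9.26e-07). CST1, a secreted cysteine protease inhibitor gene, rose from 65.2 and 71.8 TPM to 156 and 149 TPM (1.14 ± 0.06). ANXA1 (annexin A1) rose by 0.87 ± 0.06, ABHD2, a serine hydrolase gene, by 0.70 ± 0.06 and PAM, the peptide amidating enzyme gene, by 0.67 ± 0.06.

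Some of these values are uncertain because reads may be shared. TNFRSF6B (3.12 and 5.75 TPM at 0 h and 18.9 and 20.5 TPM at 48 h, 1.96 ± 0.18) lies inside the RTEL1-TNFRSF6B readthrough, ATP6V1G2-DDX39B (2.24 and 1.07 TPM at 0 h and 9.21 and 7.83 TPM at 48 h, 1.85 ± 0.35) is itself a readthrough of DDX39B, which fell (-0.47 ± 0.08), and SPANXC (0.99 ± 0.09) has near-identical relatives. By GENCODE annotation S100A3 overlaps S100A4 on the same strand, and S100A4 had 326 and 348 TPM at 0 h and 363 and 380.1 TPM at 48 h (log2 change 0.14 ± 0.06, adjusted p = 0.107). ENC1 has an overlap on the opposite strand, ACSL5 overlaps ZDHHC6 (-0.35 ± 0.07) there, and no source used here gives the strand setting of the counting. The changes of S100A4 and ZDHHC6 were smaller than those of S100A3 and ACSL5. Among genes named further on, KRT8 and KRT18 overlap each other, as do CTNNB1 and ULK4, CCND1 and LTO1, MCM7 and AP4M1, NPC1 and RMC1, TIMP1 and SYN1, TCF7 and SKP1, LGR5 and TSPAN8 and PLAU and C10orf55 on opposite strands. On the same strand ITGA1 overlaps PELO, ACADM overlaps RABGGTB, GLB1 overlaps TMPPE and MYO1A overlaps TAC3, and all these values carry the same uncertainty.

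Fewer falls than rises reached 2-fold. MLXIPL, which encodes the glucose-responsive factor ChREBP, had 30.1 and 32.5 TPM at 0 h and 13.3 and 15.01 TPM at 48 h (log2 change -1.09 ± 0.09, adjusted p = 6.4e-05). The kinase gene YES1, a relative of SRC, had 50.9 and 47.8 TPM at 0 h and 24.5 and 22.3 TPM at 48 h (log2 change -1.04 ± 0.07, adjusted p = 3.53e-05). The gene of the stress cytokine GDF15 had 28.97 and 28.1 TPM at 0 h and 13.7 and 14.5 TPM at 48 h (log2 change -0.97 ± 0.11, adjusted p = 0.0004). In each of these 3 genes the 48 h libraries lay well below the control libraries. AMH, which encodes anti-Müllerian hormone, was the largest fall in log2 terms, from 7.2 and 8.79 TPM to 2.4 and 1.93 TPM (log2 change -1.49 ± 0.17, adjusted p = 0.00051). Lower too were IZUMO1, known as a sperm protein of egg fusion (-1.05 ± 0.15), AKNA, an AT-hook protein gene (-0.97 ± 0.09), BRICD5 (-0.95 ± 0.10), the poly(A)-binding protein gene PABPC1L (-0.90 ± 0.08), the kinesin gene KIFC2 (-0.86 ± 0.10) and the lysosomal iduronidase gene IDUA (-0.995 ± 0.10).

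Among genes of 100 TPM or more at 0 h, the respiratory chain gene COX7C fell most, from 280.3 and 281 TPM to 168 and 170.3 TPM (log2 change -0.73 ± 0.05, adjusted p = 2.65e-05). TRIB3, a pseudokinase gene of the integrated stress response, had 326 and 327 TPM at 0 h and 201 and 215 TPM at 48 h (log2 change -0.65 ± 0.05, adjusted p = 6.4e-05). NOTUM, whose secreted product strips the lipid from Wnt ligands, had 369 and 361 TPM at 0 h and 238 and 243 TPM at 48 h (log2 change -0.60 ± 0.04, adjusted p = 3.41e-05). The replicates of these genes differed far less than the groups did. FGFRL1, an FGF receptor without a kinase domain (-0.60 ± 0.06), ATF5, a stress-responsive transcription factor gene (-0.60 ± 0.06), and CBS, the first enzyme of transsulfuration (-0.56 ± 0.05), were lower as well. NPIPB5 (15.8 and 18.2 TPM at 0 h and 4.49 and 8.63 TPM at 48 h, -1.297 ± 0.23) and PKD1 (47.6 and 47.5 TPM at 0 h and 22.8 and 22.2 TPM at 48 h, -1.05 ± 0.10), which encodes polycystin-1, have near-identical copies, as CBS may, so the split of their reads is uncertain. Overlapping partners on the opposite strand were SLC26A1 for IDUA (-0.44 ± 0.27, adjusted p = 0.256), TSC2 for PKD1 (-0.32 ± 0.09), MLST8 for BRICD5 (-0.14 ± 0.07), TOMM34 for PABPC1L (0.06 ± 0.06) and NUP62 for ATF5 (0.03 ± 0.06).

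**Figure D2:**
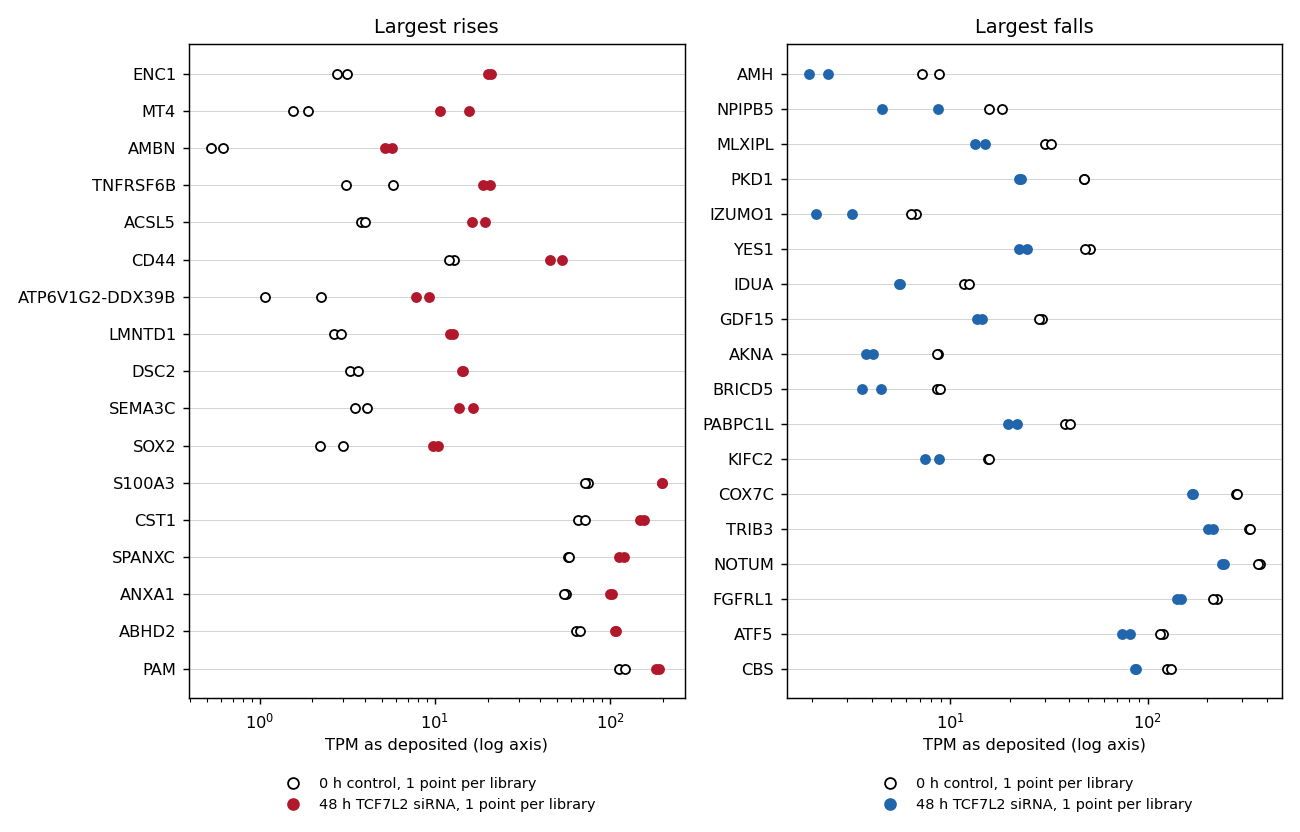
TPM as deposited (horizontal, log axis) of the largest rises (left) and largest falls (right) that are reported here by the rule, 1 point per library. Open points are the 0 h control and filled points 48 h of TCF7L2 siRNA. In every gene shown both 48 h libraries lie on the same side of both control libraries, which the rule required, and the rises are wider than the falls.

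Promoter sequence is shown for each gene of both lists of largest changes whose upstream bases held a core TCF/LEF or AP-1 motif in the table. The 250 bases upstream of each RefSeq start (GRCh38.p14) were searched on both strands for the TCF/LEF core CTTTGA, whose reverse complement is TCAAAG, and for the AP-1 motif TGANTCA, which reads the same on both strands. The motifs do not contain each other. Of the 18 largest rises 15 had a promoter entry kept here (21 promoters, 2 with the TCF/LEF core and 2 with AP-1). Of the 18 largest falls 15 had one (24 promoters, 3 and 2). Capitals mark the motif, and sequences run 5′ to 3′ on the gene's strand up to the base before the start.
AMBN, rise, chr4:70592006-70592255, plus strand, TCF/LEF core beginning at base -52: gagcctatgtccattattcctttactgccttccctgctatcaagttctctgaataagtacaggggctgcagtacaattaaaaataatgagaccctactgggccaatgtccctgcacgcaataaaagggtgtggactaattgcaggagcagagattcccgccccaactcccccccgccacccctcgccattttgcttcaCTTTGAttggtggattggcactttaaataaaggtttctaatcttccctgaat
ACSL5, rise, chr10:112375955-112376204, plus strand, TCF/LEF core beginning at base -90: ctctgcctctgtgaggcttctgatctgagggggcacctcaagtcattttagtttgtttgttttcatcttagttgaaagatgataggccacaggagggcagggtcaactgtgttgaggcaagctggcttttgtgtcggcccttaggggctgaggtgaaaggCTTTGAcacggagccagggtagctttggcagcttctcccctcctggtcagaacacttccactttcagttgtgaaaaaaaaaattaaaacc
LMNTD1, rise, chr12:25648579-25648828, minus strand, AP-1 motif beginning at base -118: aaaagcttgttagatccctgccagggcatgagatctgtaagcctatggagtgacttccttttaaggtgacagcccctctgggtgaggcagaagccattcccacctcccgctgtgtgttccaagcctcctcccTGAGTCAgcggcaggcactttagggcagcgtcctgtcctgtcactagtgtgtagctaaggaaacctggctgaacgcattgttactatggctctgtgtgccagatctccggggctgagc
S100A3, rise, chr1:153549259-153549508, minus strand, AP-1 motif beginning at base -225: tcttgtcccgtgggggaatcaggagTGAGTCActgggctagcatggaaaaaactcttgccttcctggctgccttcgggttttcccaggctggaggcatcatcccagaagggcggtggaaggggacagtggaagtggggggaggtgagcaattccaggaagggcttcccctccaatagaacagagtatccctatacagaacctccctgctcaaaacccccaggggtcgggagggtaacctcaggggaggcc
AMH, fall, chr19:2249073-2249322, plus strand, TCF/LEF core beginning at base -140: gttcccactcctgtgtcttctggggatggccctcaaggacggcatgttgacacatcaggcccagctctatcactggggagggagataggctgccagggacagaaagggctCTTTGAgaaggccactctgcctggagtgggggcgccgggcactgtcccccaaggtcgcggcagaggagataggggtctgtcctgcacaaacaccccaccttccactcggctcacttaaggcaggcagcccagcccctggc
AKNA, fall, chr9:114394406-114394655, minus strand, TCF/LEF core beginning at base -40: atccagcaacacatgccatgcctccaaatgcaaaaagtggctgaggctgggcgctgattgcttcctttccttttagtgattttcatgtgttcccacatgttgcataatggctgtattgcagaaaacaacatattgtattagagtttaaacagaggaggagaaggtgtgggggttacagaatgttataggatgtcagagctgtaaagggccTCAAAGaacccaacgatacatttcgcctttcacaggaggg
FGFRL1, fall, chr4:1012214-1012463, plus strand, TCF/LEF core beginning at base -160: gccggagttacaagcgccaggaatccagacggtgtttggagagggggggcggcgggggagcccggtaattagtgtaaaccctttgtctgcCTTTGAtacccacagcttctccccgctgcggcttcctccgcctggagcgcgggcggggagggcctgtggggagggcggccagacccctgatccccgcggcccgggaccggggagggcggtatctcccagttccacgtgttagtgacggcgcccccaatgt
COX7C, fall, chr5:86617691-86617940, plus strand, AP-1 motif beginning at base -190: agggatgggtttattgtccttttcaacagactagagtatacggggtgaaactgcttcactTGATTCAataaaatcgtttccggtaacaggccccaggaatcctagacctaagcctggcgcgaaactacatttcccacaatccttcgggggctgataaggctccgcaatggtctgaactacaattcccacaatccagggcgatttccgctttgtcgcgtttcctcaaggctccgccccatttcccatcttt
ATF5, fall, chr19:49928656-49928905, plus strand, AP-1 motif beginning at base -188: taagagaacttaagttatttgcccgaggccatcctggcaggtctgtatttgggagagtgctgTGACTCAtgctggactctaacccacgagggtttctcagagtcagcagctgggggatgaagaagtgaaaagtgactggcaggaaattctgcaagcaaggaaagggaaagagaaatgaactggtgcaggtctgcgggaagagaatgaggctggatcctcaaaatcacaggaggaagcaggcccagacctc

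Over all 35116 promoters of the table, 11.2% held the TCF/LEF core and 6.57% the AP-1 motif. For the 14372 promoters of genes tested, which the classes below divide, these shares were 7.94% and 4.47%. Among promoters of genes called higher at 48 h the TCF/LEF core was in 8.97%, of genes called lower in 7.53% and of genes not called in 7.85%. The AP-1 motif was in 6.4%, 4% and 4.24% of these. The shares of the TCF/LEF core thus lay close to one another in the 3 classes. Base composition differed between the same classes: median GC was 62% in promoters of higher genes, 66.4% in those of lower genes and 64.4% in those not called. These are descriptions of letters in a short window and were not tested.

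Lists of genes were then read by their members. Each count is of tested members, and a gene under 1 TPM at 0 h entered only if it reached 1 TPM later, so the counts do not speak for the untested members. For comparison, 11.4% of all genes tested were higher and 12% lower, with a median of -0.02.

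**Figure D3:**
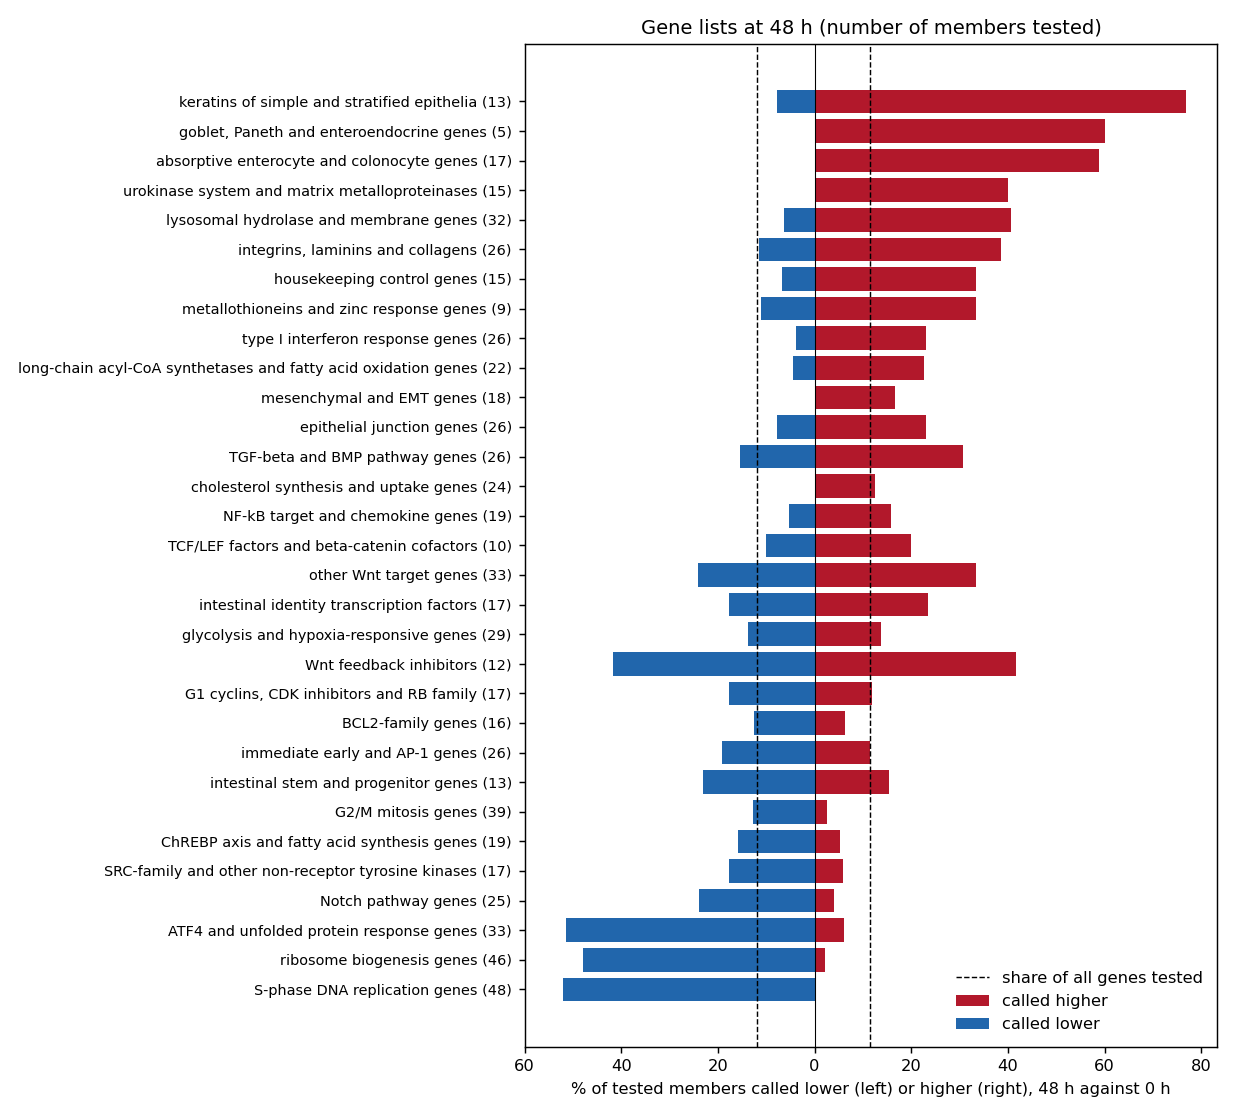
Share of tested members called lower (blue, left) or higher (red, right) at 48 h against 0 h for the gene lists, with the number tested in brackets. Lists of cell type markers are not drawn, nor are lists in which over 25% of tested members were under 1 TPM in both 0 h libraries, a limit chosen after the values were seen. Dashed lines mark the shares over all genes tested, 12% lower and 11.4% higher. Of the lists drawn, the longest red bars belong to keratins and to the goblet and absorptive cell lists, and the longest blue ones to S-phase, ribosome biogenesis and ATF4 lists.

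Wnt targets moved both ways. Of the feedback inhibitors (12 tested of 13 listed) 5 rose and 5 fell. NOTUM fell as above, and NKD2, which acts on Dishevelled, fell from 54.9 and 57.5 TPM to 38.6 and 39.04 TPM (log2 change -0.52 ± 0.07, adjusted p = 0.0011). AXIN2, a scaffold of the beta-catenin destruction complex, had 219 and 213 TPM at 0 h and 179 and 191 TPM at 48 h (log2 change -0.23 ± 0.05, adjusted p = 0.0078). Against these, DKK4, a secreted antagonist of the LRP coreceptors, had 44.8 and 45.3 TPM at 0 h and 71.2 and 71.3 TPM at 48 h (log2 change 0.65 ± 0.08, adjusted p = 0.000957), and APCDD1, a membrane inhibitor, rose from 268 and 255 TPM to 340.3 and 325 TPM (log2 change 0.34 ± 0.05, adjusted p = 0.00178). AXIN2 missed the threshold without either first library (adjusted p = 0.0701 for that at 0 h, 0.0685 for that at 48 h), and with TPM as deposited AXIN2 and APCDD1 were not called (adjusted p from 0.226 to 0.498). Without single libraries 3, 3, 3 and 3 were higher and 2, 4, 2 and 3 lower.

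Of other Wnt targets (33 tested of 34 listed) 11 rose and 8 fell, with a median of 0.00. Of the 11 rises, 2 were of genes under 1 TPM in both 0 h libraries, which could hardly have been called lower. MYC, the growth-promoting transcription factor gene, had 442 and 440.4 TPM at 0 h and 328 and 331 TPM at 48 h (log2 change -0.42 ± 0.04, adjusted p = 0.00024), and CCND1, which encodes cyclin D1, had 148 and 147 TPM at 0 h and 118 and 118 TPM at 48 h (log2 change -0.33 ± 0.06, adjusted p = 0.004). Both fell with replicates almost on top of each other, though neither passed with TPM as deposited (adjusted p = 0.113 and 0.248). Besides ENC1 and CD44 the list's smallest p-values among rises were those of FGF20, an FGF ligand gene, with 23.7 and 22.8 TPM at 0 h and 50.1 and 46.4 TPM at 48 h (log2 change 1.02 ± 0.08, adjusted p = 7.3e-05), and of PLAUR, the urokinase receptor gene, with 9.34 and 9.81 TPM at 0 h and 17.6 and 19.4 TPM at 48 h (log2 change 0.88 ± 0.08, adjusted p = 0.000168). The crypt stem cell factor gene ASCL2 had 40.4 and 40.04 TPM at 0 h and 34.6 and 37.6 TPM at 48 h (log2 change -0.15 ± 0.06, adjusted p = 0.0969), and LGR5, the stem cell receptor gene, had 0.87 and 1.02 TPM at 0 h and 0.71 and 1.11 TPM at 48 h (log2 change -0.03 ± 0.14, adjusted p = 0.891). Neither was called, though ASCL2 passed as lower when libraries were rescaled to the same sum (adjusted p = 0.0367). TCF4, an E-protein gene whose symbol is also an old name of TCF7L2, had 2.27 and 3.03 TPM at 0 h and 6.68 and 8.03 TPM at 48 h (log2 change 1.18 ± 0.12, adjusted p = 0.00028). Without single libraries 9, 7, 7 and 9 of the list were higher and 4, 4, 4 and 4 lower, and 7 and 3 with TPM as deposited. Of stem and progenitor genes (13 tested of 19 listed) 2 were higher and 3 lower. Of these 5 genes, CD44 alone was called without each single library.

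Many genes of differentiated gut epithelium rose. In the absorptive enterocyte and colonocyte list (17 tested of 33 listed) 10 were higher and 0 lower, with a median log2 change of 0.54, and 7 were not called. Of the 10, 3 (KRT20, MYO1A and MYO7B) were under 1 TPM in both 0 h libraries and could hardly have been called lower. CDH17, the intestinal cadherin gene, had 3.04 and 3.17 TPM at 0 h and 9.16 and 9.47 TPM at 48 h (log2 change 1.32 ± 0.10, adjusted p = 5.2e-05). USH1C, a brush border scaffold gene, rose from 52.1 and 49.1 TPM to 74.6 and 79.4 TPM (log2 change 0.59 ± 0.06, adjusted p = 0.000296). MYO1A, a brush border myosin gene, had 0.95 and 0.65 TPM at 0 h and 2.68 and 3.32 TPM at 48 h (log2 change 1.13 ± 0.13, adjusted p = 0.000584). It began near the limit of 1 TPM. HNF4A, a transcription factor gene of the differentiated gut, rose from 20.4 and 19.6 TPM to 27.7 and 28.4 TPM (log2 change 0.46 ± 0.06, adjusted p = 0.00107). The gut transcription factor gene CDX2 (0.11 ± 0.10, adjusted p = 0.445) and VIL1, the villin gene (0.08 ± 0.06, adjusted p = 0.354), were not called. Without single libraries 10, 8, 10 and 7 were higher and 0 lower in each, and with TPM as deposited 10 and 0.

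The carcinoembryonic antigen genes, which encode surface adhesion proteins of gut epithelium, were 5 tested of 11 listed. CEACAM5 and CEACAM6 entered the test only through libraries of TCF7L2 siRNA, so no count is given for the family. CEACAM6 was listed at 0.05 and 0 TPM at 0 h and reached 2 and 2.19 TPM at 48 h (log2 change 1.54 ± 0.11, adjusted p = 4.8e-05). CEACAM5 went from 0.05 and 0 TPM to 1.25 and 0.97 TPM (log2 change 0.997 ± 0.12, adjusted p = 0.000754). These 2 genes were therefore near the limit of detection in the control, and no fold is given for them. CEACAM1 rose from 2.4 and 2.66 TPM to 6.85 and 7.27 TPM (log2 change 1.18 ± 0.12, adjusted p = 0.000271). Of goblet, Paneth and enteroendocrine genes (5 tested of 22 listed) 3 were higher, among them LYZ, the lysozyme gene, from 1.98 and 2.16 TPM to 4.32 and 4.84 TPM (log2 change 0.85 ± 0.12, adjusted p = 0.00141), and DEFA5, a Paneth cell defensin gene, from 84.8 and 91.1 TPM to 137 and 128 TPM (log2 change 0.58 ± 0.10, adjusted p = 0.00406). Without single libraries 2 of the secretory genes were higher in each fit. LYZ is also a myeloid marker. The blood cell marker list had 12 members, which summed to 11.88 to 12.47 TPM at 0 h and 16.91 to 18.66 TPM at 48 h. Of its 3 tested members LYZ and CD68 were called higher, and 1 was not called (log2 change -0.41). PTPRC, CD3E and MS4A1 were at 0.18 TPM or less in the 4 libraries. Without the second 0 h library and without the first 48 h library CD68 was not called (adjusted p = 0.0739 and 0.0609).

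Of the transcription factors of intestinal identity (17 tested of 23 listed) 4 were higher and 3 lower. SOX2 was described above. SOX4, a progenitor factor gene, had 49.05 and 49.5 TPM at 0 h and 76.3 and 78.1 TPM at 48 h (log2 change 0.63 ± 0.05, adjusted p = 4.8e-05), and EHF, an epithelial ETS factor gene, had 50.6 and 54.1 TPM at 0 h and 77.9 and 70.3 TPM at 48 h (log2 change 0.49 ± 0.06, adjusted p = 0.000903). With SOX2 and HNF4A, SOX4 and EHF were the 4 rises, and each of them was called without each single library and with TPM as deposited. The falls of FOXA3, TFCP2L1 and SOX9 were less stable, with 0, 1, 1 and 0 lower without single libraries. The secretory calcium-binding phosphoprotein genes, which encode proteins of enamel, milk and saliva and sit side by side on chromosome 4, were 7 tested of 19 listed. Of these 7, 5 were under 1 TPM in both 0 h libraries and entered the test through later ones, so no count of rises is given for them. Beside AMBN, FDCSP had 1.21 and 1.39 TPM at 0 h and 5.06 and 4.23 TPM at 48 h (log2 change 1.27 ± 0.18, adjusted p = 0.00148), the kappa-casein gene CSN3 0.27 and 0.58 TPM at 0 h and 1.53 and 1.86 TPM at 48 h (log2 change 0.90 ± 0.17, adjusted p = 0.00554), and the histatin gene HTN1 0.24 and 0.32 TPM at 0 h and 0.91 and 1.21 TPM at 48 h (log2 change 0.66 ± 0.12, adjusted p = 0.00533). All of these were low at 0 h, and HTN1 and HTN3 are similar in sequence and uncertain.

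Keratin genes, the intermediate filament genes of epithelia, were mostly higher: 10 rose, at 76.9% of those tested against 11.4% of all genes, and 1 was lower (13 tested of 16 listed), with a median of 0.38. Of the 13, 2 were under 1 TPM in both 0 h libraries and entered the test through later ones. Of these 2, 1 was among the 10 rises and could hardly have been called lower. KRT19 had 495 and 487 TPM at 0 h and 733 and 731 TPM at 48 h (log2 change 0.57 ± 0.04, adjusted p = 6.4e-05) and KRT5, a keratin of basal cells, had 284 and 281 TPM at 0 h and 408 and 409 TPM at 48 h (log2 change 0.53 ± 0.04, adjusted p = 7.59e-05). The abundant pair of simple epithelia rose less: KRT8 went from 907 and 924 TPM to 1162 and 1190.1 TPM (log2 change 0.36 ± 0.04, adjusted p = 0.000296) and KRT18 from 1195 and 1172 TPM to 1482 and 1485 TPM (log2 change 0.32 ± 0.04, adjusted p = 0.00106). Replicates of each of these keratins lay close together. Without single libraries 8, 8, 10 and 8 were higher and 0 lower. With TPM as deposited 4 keratins were higher, and KRT8 and KRT18 were not among them (adjusted p = 0.237 and 0.321). Of epithelial junction genes (26 tested of 28 listed) 6 were higher and 2 lower, with DSC2 the largest. CLDN4, a tight junction claudin gene, had 40.5 and 41.7 TPM at 0 h and 62.1 and 62.6 TPM at 48 h (log2 change 0.59 ± 0.05, adjusted p = 0.000159), EPCAM 440.4 and 445 TPM at 0 h and 586 and 599 TPM at 48 h (log2 change 0.42 ± 0.05, adjusted p = 0.000676) and DSG2, a desmoglein gene, 25.4 and 26.4 TPM at 0 h and 33.4 and 33.6 TPM at 48 h (log2 change 0.36 ± 0.06, adjusted p = 0.00238). Without single libraries 4, 6, 5 and 5 junction genes were higher and 0, 1, 1 and 0 lower, and 3 and 1 with TPM as deposited.

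Genes of cell attachment and matrix remodelling were higher in part. Of integrins, laminins and collagens (26 tested of 29 listed) 10 were higher and 3 lower. ITGB1, the shared beta chain of most integrins, had 143 and 141 TPM at 0 h and 213 and 216 TPM at 48 h (log2 change 0.59 ± 0.05, adjusted p = 0.000101), and ITGA1, a collagen-binding alpha chain gene, 9.81 and 6.69 TPM at 0 h and 16.96 and 15.6 TPM at 48 h (log2 change 0.91 ± 0.15, adjusted p = 0.00264). COL17A1, a hemidesmosome collagen gene, rose from 0.22 and 0.24 TPM to 1.34 and 2.12 TPM (log2 change 1.098 ± 0.15, adjusted p = 0.00142). This 1 of the 10 rises was under 1 TPM in both 0 h libraries. It entered the test through later libraries and could hardly have been called lower. Of the urokinase system and matrix metalloproteinases (15 tested of 22 listed) 6 were higher and 0 lower. Of these 6, 1 was under 1 TPM in both 0 h libraries and could hardly have been called lower. PLAUR rose as above, its ligand gene PLAU had 1.16 and 1.23 TPM at 0 h and 3.04 and 2.83 TPM at 48 h (log2 change 0.82 ± 0.10, adjusted p = 0.000758), and TIMP1, a metalloproteinase inhibitor gene, had 37.1 and 38.6 TPM at 0 h and 60.96 and 62.8 TPM at 48 h (log2 change 0.69 ± 0.05, adjusted p = 6.4e-05). Both the protease gene and the inhibitor gene were thus higher. Without single libraries 6, 6, 5 and 6 of the former list and 4, 3, 3 and 4 of the latter were higher, and 5 and 4 with TPM as deposited.

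Of mesenchymal and EMT genes (18 tested of 28 listed) 3 were higher (16.7%, against 11.4% of all genes) and 0 lower, with a median of 0.13. Of the 3, POSTN was under 1 TPM in both 0 h libraries and could hardly have been called lower. TGFBI, a matrix protein gene, had 9.72 and 9.93 TPM at 0 h and 14.7 and 16.4 TPM at 48 h (log2 change 0.60 ± 0.10, adjusted p = 0.00257), and POSTN, the periostin gene, had 0.08 and 0.16 TPM at 0 h and 1.43 and 1.32 TPM at 48 h (log2 change 1.05 ± 0.12, adjusted p = 0.000509). VIM, the vimentin gene, had 9.37 and 9.59 TPM at 0 h and 9.75 and 11.1 TPM at 48 h (log2 change 0.12 ± 0.09, adjusted p = 0.338) and ZEB1, a repressor of epithelial genes, 2.33 and 2.18 TPM at 0 h and 3.09 and 2.95 TPM at 48 h (log2 change 0.30 ± 0.10, adjusted p = 0.0636), and neither was called in this fit. Fibroblast markers moved beside these: the 10 summed to 11.08 to 13.41 TPM at 0 h and 30.24 to 31 TPM at 48 h, and of 4 tested, those called higher were LUM (from 9.35 and 9 TPM to 23.7 and 25.2 TPM), POSTN and COL3A1, the latter pair under 1 TPM in both 0 h libraries. The defining marker PDGFRA was listed at 0 in both 0 h libraries and at 0.13 and 0.01 TPM at 48 h, and COL1A1 had 1.94 and 1.21 TPM at 0 h and 2.04 and 1.34 TPM at 48 h (log2 change 0.06 ± 0.21, adjusted p = 0.852). Without single libraries 2 mesenchymal genes were higher in each fit, and with TPM as deposited 2 were higher and 1 lower. The part of other cells in these values was not tested.

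Many DNA replication genes fell. Of S-phase genes (48 tested of 48 listed) 0 were higher and 25 lower, which is 52.1% against 12% of all genes, and 46 of the 48 had a log2 change below 0 (median -0.28). POLE, the leading-strand polymerase gene, had 46.7 and 46.1 TPM at 0 h and 29.1 and 29.2 TPM at 48 h (log2 change -0.66 ± 0.07, adjusted p = 0.000239). E2F1, a transcription factor gene of S-phase entry, had 31.6 and 33.1 TPM at 0 h and 23.4 and 23.03 TPM at 48 h (log2 change -0.46 ± 0.06, adjusted p = 0.000867). MCM7, a subunit of the replicative helicase, fell from 243 and 239 TPM to 196 and 194 TPM (log2 change -0.31 ± 0.04, adjusted p = 0.00172), and TK1, thymidine kinase, from 33.9 and 35.1 TPM to 25.9 and 26.7 TPM (log2 change -0.38 ± 0.06, adjusted p = 0.00207). The falls were small and the call count moved with the fit: 14, 11, 13 and 11 were lower without single libraries and 5 with TPM as deposited, where E2F1, MCM7 and TK1 were not called (adjusted p from 0.0523 to 0.308).

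Fewer genes of mitosis and G1 were called. Of G2/M genes (39 tested of 39 listed) 1 was higher and 5 lower, with a median of -0.10, against the 12% lower among all genes. MKI67, the proliferation antigen gene, had 13.6 and 13.3 TPM at 0 h and 8.82 and 8.47 TPM at 48 h (log2 change -0.58 ± 0.11, adjusted p = 0.00601), and KIF23, a kinesin gene of cytokinesis, 34.8 and 33.95 TPM at 0 h and 24.8 and 26.8 TPM at 48 h (log2 change -0.40 ± 0.07, adjusted p = 0.00308). Without single libraries 2, 2, 2 and 4 were lower and 0 higher, and with TPM as deposited 1 was lower. With libraries at 1 common sum of TPM 13 were lower and 0 higher. Among G1 cyclins, CDK inhibitors and the RB family (17 tested of 17 listed) 2 were higher (11.8%) and 3 lower (17.6%). CDK6, a cyclin D kinase gene, had 74.2 and 72.2 TPM at 0 h and 53.4 and 55.3 TPM at 48 h (log2 change -0.42 ± 0.05, adjusted p = 0.000903), and CCND2, its cyclin D2 partner gene, had 199.8 and 203 TPM at 0 h and 169.9 and 172 TPM at 48 h (log2 change -0.24 ± 0.04, adjusted p = 0.00335). CCND1 fell as above. CDKN2A, which encodes the inhibitor p16, had 28.6 and 29.5 TPM at 0 h and 37.9 and 43.1 TPM at 48 h (log2 change 0.46 ± 0.09, adjusted p = 0.00705), and missed the threshold when the second 48 h library was left out (adjusted p = 0.0618). KIF23, CDK6 and CCND2 were not called with TPM as deposited (adjusted p from 0.0847 to 0.468). CDKN1A, the p21 gene of cell cycle arrest, had 14.1 and 14.9 TPM at 0 h and 14.6 and 15.03 TPM at 48 h (log2 change 0.03 ± 0.07, adjusted p = 0.821).

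Of ribosome biogenesis genes, which build the ribosomal subunits in the nucleolus, 22 fell, 1 rose and 23 were not called (46 tested of 46 listed). The share that fell was 47.8%, against 12% of all genes, 43 of the 46 had a log2 change below 0, and the median was -0.18. DDX21, a nucleolar helicase gene, had 122 and 127 TPM at 0 h and 88.8 and 86.9 TPM at 48 h (log2 change -0.50 ± 0.05, adjusted p = 0.000362). NAT10, an RNA acetyltransferase gene, had 41.6 and 41.2 TPM at 0 h and 32.01 and 31.97 TPM at 48 h (log2 change -0.36 ± 0.05, adjusted p = 0.00168). NOP56, of the box C/D particle, fell from 398 and 384 TPM to 301 and 304 TPM (log2 change -0.37 ± 0.05, adjusted p = 0.00183), and NOP2, an rRNA methyltransferase gene, from 94.1 and 86.9 TPM to 68.96 and 70.3 TPM (log2 change -0.37 ± 0.06, adjusted p = 0.00193). Each fall was larger than the gap between its replicates. Without single libraries 8, 13, 16 and 11 were lower. With TPM as deposited 1 was, and NAT10, NOP56 and NOP2 were not called (adjusted p from 0.156 to 0.19).

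In the list of ATF4 and unfolded protein response genes, which supply amino acids, curb translation and fold proteins, 17 fell, 2 rose and 14 were not called (33 tested of 39 listed, median -0.19). The share that fell was 51.5%, against 12% of all genes. Beside TRIB3 and GDF15, SLC7A1, an amino acid transporter gene, had 40.2 and 42.2 TPM at 0 h and 25.97 and 26.1 TPM at 48 h (log2 change -0.64 ± 0.08, adjusted p = 0.000588), and DDIT4, an inhibitor of mTOR, had 107 and 111 TPM at 0 h and 80.4 and 76.2 TPM at 48 h (log2 change -0.47 ± 0.06, adjusted p = 0.000598). ATF4 itself had 423 and 424 TPM at 0 h and 386 and 404 TPM at 48 h (log2 change -0.10 ± 0.04, adjusted p = 0.103) and the amino acid synthesis gene ASNS 429 and 441 TPM at 0 h and 394 and 416 TPM at 48 h (log2 change -0.11 ± 0.05, adjusted p = 0.141), and neither was called. HSPA5, the chaperone gene BiP of the endoplasmic reticulum, had 43.01 and 47.6 TPM at 0 h and 53.1 and 53.4 TPM at 48 h (log2 change 0.23 ± 0.11, adjusted p = 0.15). The falls thus lay in a part of the list. Of the 17, 14 were called without each of the 4 single libraries, and with TPM as deposited 11 were lower and 0 higher.

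In the ChREBP and fatty acid synthesis list (19 tested of 23 listed) 3 were lower and 1 higher. Beside MLXIPL, SCD, the stearoyl-CoA desaturase gene, had 117 and 118 TPM at 0 h and 88.4 and 88.1 TPM at 48 h (log2 change -0.41 ± 0.05, adjusted p = 0.000391), and FASN, fatty acid synthase, 66.5 and 67.7 TPM at 0 h and 50.3 and 50.2 TPM at 48 h (log2 change -0.41 ± 0.05, adjusted p = 0.000579). TXNIP, a thioredoxin-binding protein gene that ChREBP induces, went the other way, from 29 and 31.8 TPM to 44.4 and 42.5 TPM (log2 change 0.50 ± 0.07, adjusted p = 0.0011). Of acyl-CoA synthetase and fatty acid oxidation genes (22 tested of 24 listed) 5 were higher and 1 lower. ACSL5 stood apart in size from ACADM, a mitochondrial dehydrogenase gene (from 24.8 and 24.4 TPM to 37.01 and 37.3 TPM, log2 change 0.57 ± 0.06, adjusted p = 0.000314), and PLIN2, a lipid droplet coat gene (from 14.7 and 14.7 TPM to 19.5 and 19.3 TPM, log2 change 0.37 ± 0.07, adjusted p = 0.00449). The other synthetase genes ACSL1 (0.30 ± 0.11), ACSL3 (0.11 ± 0.05) and ACSL4 (-0.02 ± 0.09) were not called. Without single libraries 3, 4, 3 and 3 of the acyl-CoA list were higher. With TPM as deposited 2 were, and SCD, FASN and PLIN2 were not called (adjusted p from 0.0993 to 0.147).

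Cholesterol genes (24 tested of 24 listed) had 3 higher and 0 lower, at 12.5% close to the 11.4% of all genes, and INSIG1, a sterol sensor gene, had 11.8 and 12.4 TPM at 0 h and 15.4 and 16.4 TPM at 48 h (log2 change 0.36 ± 0.07, adjusted p = 0.00798). None of the 3 calls stood without each single library, where 0, 1, 1 and 1 were higher, against 0 with TPM as deposited, and INSIG1 lost its call without the first 0 h library (adjusted p = 0.0622) and the second 48 h library (0.0618). Glycolysis and hypoxia genes (29 tested of 30 listed) had 4 higher and 4 lower, 13.8% each and near the shares of all genes. SLC2A1, the glucose transporter gene GLUT1, had 339 and 341 TPM at 0 h and 242 and 245 TPM at 48 h (log2 change -0.48 ± 0.05, adjusted p = 0.000221), and VEGFA, the vascular growth factor gene, 51.9 and 48.8 TPM at 0 h and 31.2 and 36.95 TPM at 48 h (log2 change -0.55 ± 0.08, adjusted p = 0.002). These 2 falls were called without each single library, while 0 rises were.

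Lysosomal genes, which encode degradative enzymes and membrane proteins, were higher in 13 and lower in 2 cases (32 tested of 35 listed, median 0.17). PSAP, the precursor of the saposins, had 98.4 and 99 TPM at 0 h and 122 and 125 TPM at 48 h (log2 change 0.32 ± 0.04, adjusted p = 0.00121), and GLB1, beta-galactosidase, 24.5 and 25.4 TPM at 0 h and 33.96 and 33.5 TPM at 48 h (log2 change 0.42 ± 0.06, adjusted p = 0.0015). IDUA and NPC1 fell, NPC1, the cholesterol exporter gene, from 20.4 and 16.6 TPM to 11.2 and 10.8 TPM (log2 change -0.69 ± 0.10, adjusted p = 0.00141). The 2 falls were larger than any of the 13 rises in log2 terms. Without single libraries 9, 8, 9 and 7 were higher, and with TPM as deposited 2, with PSAP and GLB1 not called (adjusted p from 0.0872 to 0.249). Of metallothionein and zinc genes (9 tested of 15 listed) 3 were higher and 1 lower. Beside MT4, MT3 had 4.65 and 4.42 TPM at 0 h and 8.13 and 8.64 TPM at 48 h (log2 change 0.75 ± 0.11, adjusted p = 0.00139), while the abundant MT2A had 40.4 and 45.9 TPM at 0 h and 47.1 and 54.2 TPM at 48 h (log2 change 0.22 ± 0.09, adjusted p = 0.0923) and MT1E fell from 27.96 and 28.3 TPM to 21.3 and 18.9 TPM (log2 change -0.47 ± 0.10, adjusted p = 0.00794). Members of this family are alike in sequence, so their values are uncertain, and MT1E was not called without the second 48 h library (adjusted p = 0.0642).

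Immune and immediate early genes were called in both directions, in part at shares near those of all genes, 11.4% higher and 12% lower. Of type I interferon genes (26 tested of 35 listed) 6 were higher (23.1%) and 1 lower (3.85%), with a median of 0.01. Of the 6, 1 was under 1 TPM in both 0 h libraries and could hardly have been called lower. ISG20, an exonuclease gene, had 14.9 and 15.5 TPM at 0 h and 32.96 and 33.9 TPM at 48 h (log2 change 1.08 ± 0.06, adjusted p = 1.31e-05), and B2M, the light chain of HLA class I, had 159 and 161 TPM at 0 h and 235 and 235 TPM at 48 h (log2 change 0.55 ± 0.05, adjusted p = 8.45e-05). The sensors and effectors IFIH1 (0.02 ± 0.12), MX1 (-0.16 ± 0.16) and ISG15 (0.12 ± 0.13) were not called. Without single libraries 3, 2, 4 and 3 were higher, and 4 with TPM as deposited. Of NF-kB targets (19 tested of 26 listed) 3 were higher (15.8%) and 1 lower (5.26%). CXCL8, the neutrophil chemokine gene, rose from 1.6 and 1.48 TPM to 3.17 and 3.71 TPM (log2 change 0.79 ± 0.11, adjusted p = 0.00141). Immediate early and AP-1 genes (26 tested of 28 listed) had 3 higher (11.5%) and 5 lower (19.2%). PHLDA1 rose from 213 and 225 TPM to 293 and 306 TPM (log2 change 0.45 ± 0.05, adjusted p = 0.000363), and IER2 fell from 48.1 and 47.5 TPM to 32.2 and 35.5 TPM (log2 change -0.49 ± 0.08, adjusted p = 0.00258). The AP-1 subunit genes JUN (0.06 ± 0.07), FOS (-0.12 ± 0.10) and FOSL1 (-0.22 ± 0.10) were not called. PHLDA1 was not called with TPM as deposited (adjusted p = 0.0798).

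Among SRC-family and other non-receptor tyrosine kinases (17 tested of 20 listed) 1 was higher and 3 lower. YES1 was by far the largest fall, and its relatives SRC (-0.07 ± 0.10), FYN (-0.02 ± 0.07) and LYN (-0.03 ± 0.12) were not called. LCK, best known in T cells and also expressed in colon cancer lines, had 22.7 and 22.4 TPM at 0 h and 33.9 and 37.02 TPM at 48 h (log2 change 0.63 ± 0.07, adjusted p = 0.00049). TYK2, a Janus kinase gene, fell from 63.3 and 59.5 TPM to 46.6 and 49.1 TPM (log2 change -0.35 ± 0.06, adjusted p = 0.00232) and was not called with TPM as deposited (adjusted p = 0.185). Of BCL2-family genes (16 tested of 19 listed), which set the threshold for apoptosis, 1 was higher (6.25%) and 2 lower (12.5%, against 12% of all genes). The pro-survival gene BCL2L1 had 115 and 119.5 TPM at 0 h and 95.7 and 95.4 TPM at 48 h (log2 change -0.29 ± 0.04, adjusted p = 0.00203) and the pro-death gene BBC3, or PUMA, 15.2 and 16.1 TPM at 0 h and 9.99 and 11.3 TPM at 48 h (log2 change -0.52 ± 0.09, adjusted p = 0.00408). Both falls stood without each single library, and BCL2L1 was not called with TPM as deposited (adjusted p = 0.317).

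Notch pathway genes (25 tested of 26 listed) had 1 higher and 6 lower, with a median of -0.14. The receptor gene NOTCH1 had 25.1 and 24.8 TPM at 0 h and 17.3 and 18.5 TPM at 48 h (log2 change -0.46 ± 0.07, adjusted p = 0.00264), and of its ligand genes JAG2 fell from 91.4 and 89.7 TPM to 69.6 and 72.9 TPM (log2 change -0.34 ± 0.07, adjusted p = 0.00582) while JAG1 rose from 13.8 and 14.8 TPM to 18.2 and 18.4 TPM (log2 change 0.34 ± 0.08, adjusted p = 0.0148). HES1, a target of the pathway, had 3.33 and 3.99 TPM at 0 h and 3.79 and 3.15 TPM at 48 h (log2 change -0.06 ± 0.12, adjusted p = 0.737). Without single libraries 3, 2, 4 and 2 Notch genes were lower, and 2 with TPM as deposited. JAG1 missed the threshold when the first 0 h library was left out (adjusted p = 0.101), as when either 48 h library was (0.0692 and 0.0752), and NOTCH1, JAG2 and JAG1 were not called with TPM as deposited (adjusted p from 0.0517 to 0.207). TGF-beta and BMP genes (26 tested of 30 listed) had 8 higher and 4 lower. Of the 8, 1 was under 1 TPM in both 0 h libraries and could hardly have been called lower. The ligand gene BMP2 rose from 6.14 and 6.24 TPM to 10.7 and 11.2 TPM (log2 change 0.73 ± 0.08, adjusted p = 0.000371). ID1, a BMP target that blocks bHLH factors, fell from 100.05 and 98.2 TPM to 67.5 and 71.5 TPM (log2 change -0.51 ± 0.06, adjusted p = 0.000473), as did the ligand genes GDF15 and AMH.  Without single libraries 5, 4, 6 and 5 were higher and 4, 4, 4 and 4 lower, and with TPM as deposited 3 and 3.

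Control genes moved as well. Of 15 housekeeping genes 5 were higher and 1 lower (median 0.14). Quantile normalization gave 2 higher and 2 lower with a median of -0.01, and TPM as deposited 1 and 0. B2M stood out, and EEF1A1, the elongation factor gene, had 4709.7 and 4659 TPM at 0 h and 5962 and 5919 TPM at 48 h (log2 change 0.34 ± 0.07, adjusted p = 0.00674), which turned to 0.00 under quantile normalization. GAPDH had 3348 and 3246 TPM at 0 h and 3749 and 3657 TPM at 48 h (log2 change 0.17 ± 0.04, adjusted p = 0.0204), and ACTB, the beta-actin gene, had 1659 and 1614 TPM at 0 h and 1794 and 1807 TPM at 48 h (log2 change 0.14 ± 0.05, adjusted p = 0.057). The call of GAPDH was lost without each of the 4 single libraries (adjusted p = 0.0789, 0.172, 0.171 and 0.0755), and that of EEF1A1 without the second 0 h library (0.0537) and the first 48 h library (0.0551).

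The 48 h state was then set against 24 h, where cells carried the same siRNA. This contrast is also the test of whether the change against the shared control differed between 24 and 48 h. In total 859 genes were higher (7.22%) and 850 lower (7.15%) at 48 h than at 24 h, 14.4% together, while 73 were higher (0.614%) and 51 lower (0.429%) at 24 h than at 0 h. Against 0 h, 1.04% of all genes were called at 24 h, 23.4% at 48 h and 52.2% at 72 h. With TPM as deposited the 48 h against 24 h count was 597, of which 85.8% were higher. ENC1 had 3.57 and 4.58 TPM at 24 h (48 h minus 24 h 2.001 ± 0.11, adjusted p = 2.14e-05), CD44 14.1 and 11.7 (1.77 ± 0.13, adjusted p = 9.27e-05) and S100A3 70.7 and 69.6 (1.38 ± 0.05, adjusted p = 1.13e-06). None of these 3 was called between 24 h and 0 h (adjusted p = 0.0937 for ENC1, 0.666 for CD44 and 0.799 for S100A3). CDK6 had 49.9 and 49.5 TPM at 24 h and did not differ between 24 and 48 h beyond the test (0.03 ± 0.05, adjusted p = 0.778), nor did E2F1 with 23.8 and 23.1 TPM at 24 h (-0.11 ± 0.06, adjusted p = 0.257). MYC had 351 and 340.3 TPM at 24 h and was lower again at 48 h (-0.17 ± 0.04, adjusted p = 0.0292). All of CDK6, E2F1 and MYC were already lower at 24 h than at 0 h (adjusted p = 0.0104, 0.03 and 0.031). Of the 39 G2/M genes 16 were lower at 48 h than at 24 h and 0 higher, with a median of -0.18. Against 0 h the same G2/M genes had a median of 0.14 at 24 h (1 higher, 0 lower) and -0.10 at 48 h. The 24 h level from which they fell thus lay above the control in the median. Of the 48 S-phase genes 2 were lower at 48 h than at 24 h and 0 higher, with a median of -0.09.

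From 48 to 72 h 2300 genes were higher (19.3%) and 2471 lower (20.8%), 40.1% together, and 3709 were called without the second 72 h library. That split rests on scaling, since with TPM as deposited 18.4% of 3211 called genes were higher, and with libraries rescaled to the same sum 59.2% of 4846. COX7C went on from 168 and 170.3 TPM at 48 h to 36.2 and 26.6 TPM at 72 h (72 h minus 48 h -2.22 ± 0.05, adjusted p = 9.19e-09), YES1 from 24.5 and 22.3 to 6.39 and 4.84 (-1.72 ± 0.07, adjusted p = 1.14e-06) and CD44 from 45.6 and 53.3 to 114 and 117 (1.403 ± 0.13, adjusted p = 6.48e-05). In other genes 48 h held the extreme value. DKK4 had 71.2 and 71.3 TPM at 48 h and 37.1 and 23.7 at 72 h (-1.05 ± 0.08, adjusted p = 3.18e-05), and KRT5 had 408 and 409 and 323 and 238 (-0.36 ± 0.04, adjusted p = 0.000242). BRICD5 had 3.57 and 4.48 TPM at 48 h and 6.76 and 5.25 at 72 h (0.64 ± 0.10, adjusted p = 0.00114). IDUA had 5.59 and 5.52 TPM at 48 h and 8.15 and 5.3 at 72 h, values that overlap as deposited, and was called higher after scaling (0.38 ± 0.10, adjusted p = 0.0139). CDH17 did not differ between 48 and 72 h beyond the test (0.09 ± 0.10, adjusted p = 0.488). Of the 33 ATF4 and unfolded protein response genes 26 were lower at 72 h than at 48 h and 0 higher, with a median of -0.61. All these comparisons share libraries with the one between 48 h and 0 h.

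**Figure D4:**
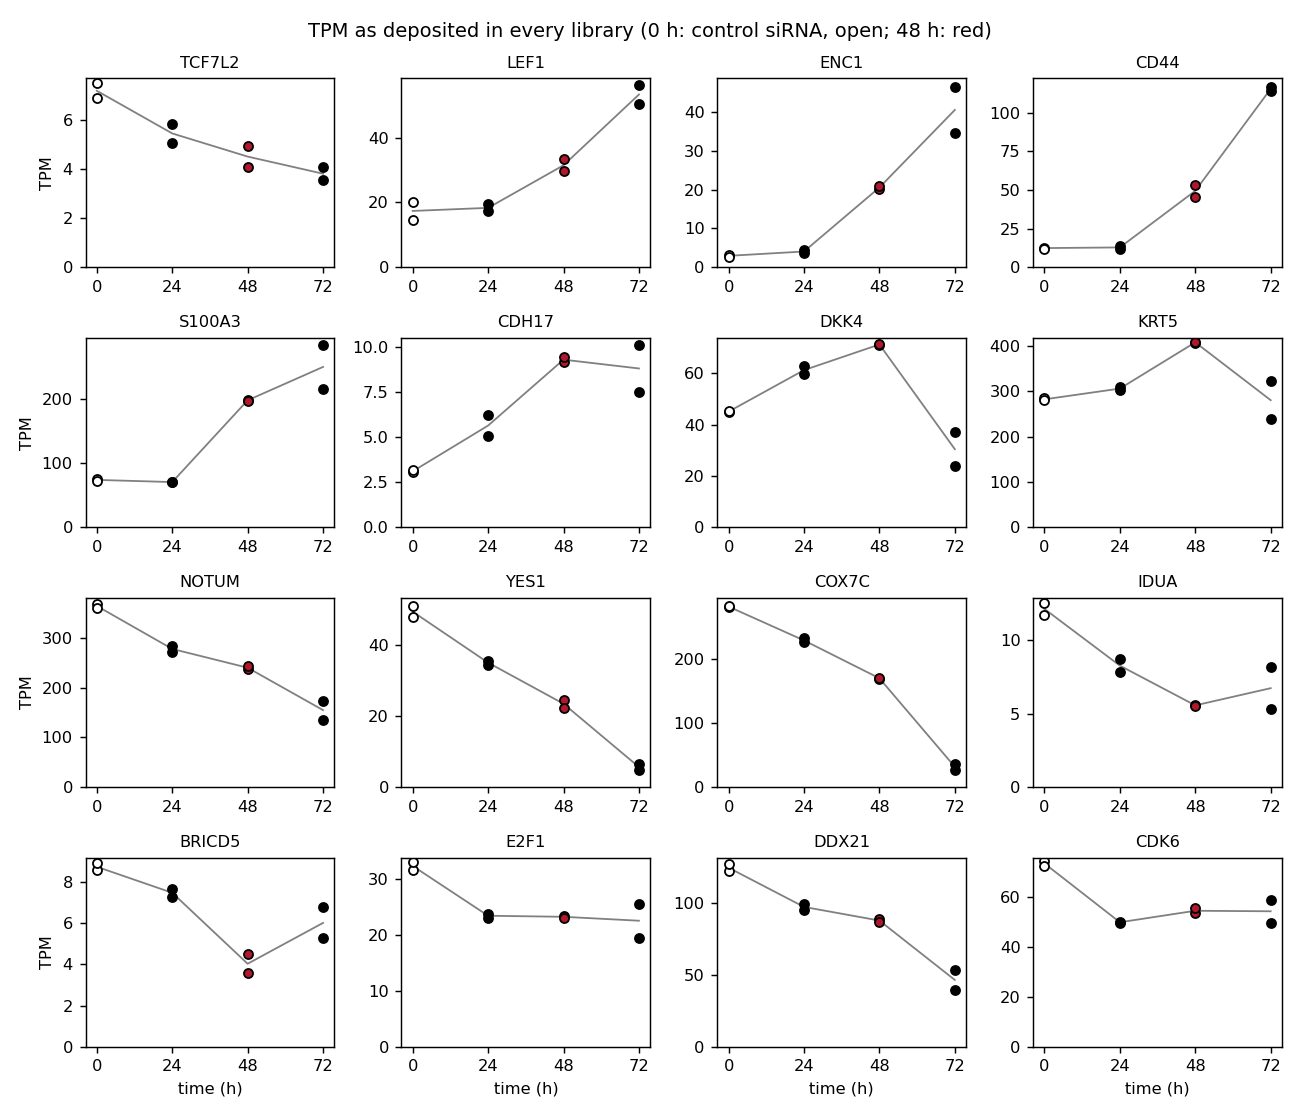
TPM as deposited (vertical axis, from 0) against hours of treatment (horizontal) for 16 named genes, 1 point per library, with a line through the group means. Open points are the 0 h control and red points the 48 h libraries. ENC1, CD44 and S100A3 rise after 24 h, DKK4 and KRT5 are highest at 48 h, and CDK6 and E2F1 are already lower at 24 h.

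Because the series title speaks of local genomic reorganization, the called genes were also placed on the chromosomes. By RefSeq order 11880 genes could be placed. The share called higher ran from 3.99% on chromosome 22 to 16.7% on chromosome 18, and the share called lower from 7.44% on chromosome 4 to 17.4% on chromosome 16. Chromosomes 16, 17, 19 and 22 had the highest shares of lower genes, at 17.4, 17.2, 16.4 and 17%, while chromosomes 18 and X had the highest shares of rises, at 16.7 and 15.1%. Median log2 changes per chromosome lay between -0.09 and 0.04. Genes called lower spanned a median of 24.8 kb and those called higher 30.6 kb, and their median TPM at 0 h was 23.3 and 14.3, against 31.5 kb and 11.8 TPM for genes not called. Gene density, GC content and expression level differ between chromosomes, and their part in these shares was not tested.

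**Figure D5:**
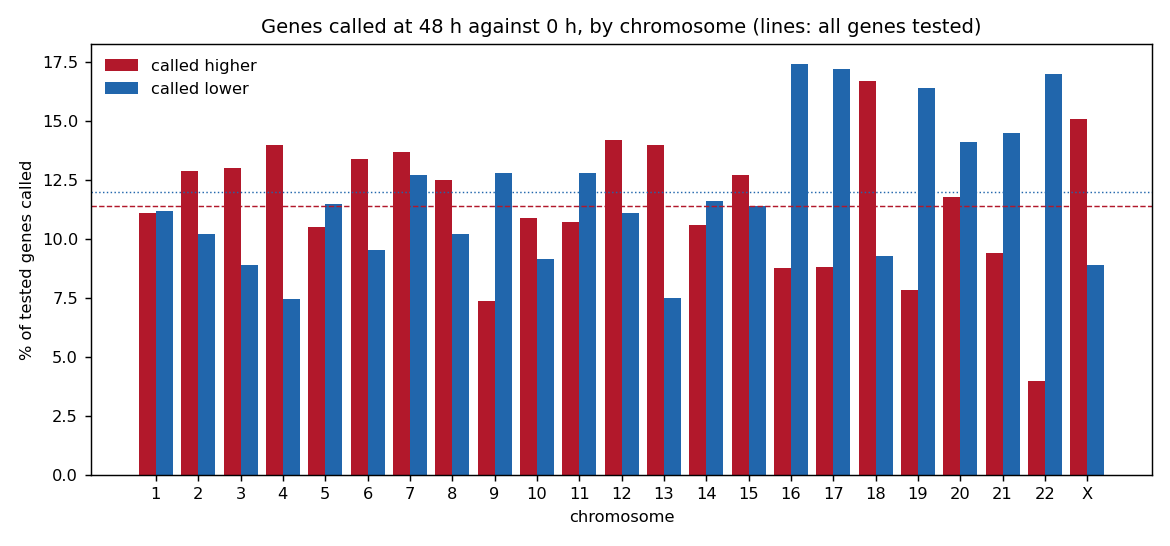
Share of tested genes called higher (red) and lower (blue) at 48 h against 0 h on each chromosome, with lines at the shares over all genes tested, 11.4% and 12%. Chromosome 22 has the lowest share of rises, 3.99%, and chromosomes 16, 17, 19 and 22 the highest shares of falls.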

How the data were processed

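Total RNA of SW480 cells was sequenced after removal of ribosomal RNA, per the labels' protocols. The authors deposited 1 table of TPM per gene symbol for the 8 libraries. STAR, RSEM, Trimmomatic, FastQC, Picard, SAMtools and hg19 are named in the submitters' processing notes, and their versions, the annotation and the strand setting are given in no source used here. From the deposited TPM, libraries were scaled by median ratios, log2(TPM + 1) was fitted with limma 3.58.1 (R 4.3.3) with one mean per group over all 8 libraries and a trended prior, and two-sided p-values were adjusted by Benjamini-Hochberg over the 11894 genes that reached 1 TPM in at least 2 libraries. Calls are at an adjusted p under 0.05, and values are log2 changes ± SE. Scaling was preferred because the fit as deposited gave every gene only the spread of its expression level. The fit was tested on simulated data.

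Members, the 37 gene lists and the fit were chosen with earlier results of these data known. Named were TCF/LEF genes, 5 Wnt targets, the 12 largest rises and falls with 5 TPM or more and the 6 largest with 100 TPM or more in the higher group (called in both fits, no overlap of libraries), and up to 4 members of each list with the smallest p. Some items the rule names are not reported here. Alternatives were pseudocount, filters, scaling, prior, threshold, block and left-out libraries. Replicate numbers did not pair the samples. Promoters and gene order came from RefSeq (GRCh38.p14), used for names, order and sequence only, and overlaps from GENCODE.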

Additional observations from a re-analysis of the deposited data

Results flagged for a closer look

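Of 159 genes named by rule, 117 passed limma's test of 48 h against 24 h. Of all genes tested, 14.4% passed it. Most named genes were picked by their change at 48 h against 0 h, which uses the same 48 h libraries. The count is therefore not read against that share. Values are given here for the TCF/LEF genes, the 5 Wnt targets and the largest changes among them, whose change against the shared 0 h control differed between 24 and 48 h, by limma's test of 48 h against 24 h with adjusted p under 0.05 over all genes, as the 48 h minus 24 h difference in log2(TPM + 1). Chance would flag some of the genes tested at this threshold, and the genes were chosen in part by their level at 48 h.

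Of those with a role in the Wnt pathway, the difference was LEF1 0.65, CTNNB1 0.28, MYC -0.17, AXIN2 -0.21, ENC1 2.00, CD44 1.77 and NOTUM -0.31. Rises that were larger at 48 h in structural, secreted and lipid genes were MT4 1.37, AMBN 1.78, ACSL5 1.73, LMNTD1 1.29, DSC2 0.91, SEMA3C 1.73, S100A3 1.38, CST1 1.07, ANXA1 0.71, ABHD2 0.49 and PAM 0.84, with SOX2 1.17, TNFRSF6B 0.74 and SPANXC 0.85 beside them, of which TNFRSF6B and SPANXC are uncertain because reads may be shared. Falls that were larger at 48 h were AMH -0.84, MLXIPL -0.91, IZUMO1 -0.83, YES1 -0.66, IDUA -0.58, GDF15 -0.38, AKNA -0.83, BRICD5 -0.84, PABPC1L -0.80, KIFC2 -0.71, COX7C -0.53, TRIB3 -0.53, FGFRL1 -0.61 and ATF5 -0.56. The same held for NPIPB5 -1.03, PKD1 -0.82 and CBS -0.28, whose reads may be split with near-identical copies.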

How the results depend on the processing

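The count of genes called between 48 h and 0 h (2783) fell to 922 with TPM as deposited, 1283 at an adjusted p under 0.01 and 76 at 2-fold or more, and ranged from 1367 to 3185 when 1 library was left out, lowest without the first 0 h library. It was 3186 without both 72 h libraries, an alternative chosen after seeing the data. Of the called genes 48.5% were higher, 59.4% as deposited and 33.4% with the same sum over listed genes. Between 48 h and 24 h the count (1709) was 597 as deposited, 580 at an adjusted p under 0.01 and 40 at 2-fold or more, with leave-one-out values from 613 to 2014, and 85.8% of the 597 were higher against 50.3%. Between 72 h and 48 h (4771) it was 2827 at an adjusted p under 0.01 and 145 at 2-fold or more, with leave-one-out values from 3151 to 4584. The fall of TCF7L2 was -0.57 and thus under 2-fold, and it ranged from -0.688 to -0.456 when 1 library was left out, the latter without the second 48 h library at an adjusted p of 0.0526. The cause of these shifts was not tested, apart from the stricter thresholds and the fewer samples.

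Among named genes called as reported, EEF1A1 turned from 0.34 to -0.000 under quantile normalization, and no other named gene reversed under any alternative run. With the replicate block, where same-numbered libraries correlated at 0.036 in their deviations (0 h with 48 h), 2698 genes were called between 48 h and 0 h, 1557 between 48 h and 24 h and 4677 between 72 h and 48 h, and TCF7L2 was -0.570 with an adjusted p of 0.0118. With the block and only the 2 groups in the fit, chosen after seeing the data, 3695 were called. Depth is unknown from TPM.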

Other observations

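Called genes often had a neighbour called the same way. In the order of the 11880 genes tested and placed by RefSeq, 440 of 1347 genes called higher (32.7%) lay next to another gene called higher, and 20.9% of all placed genes did. Of 1432 genes called lower 457 (31.9%) lay next to another gene called lower, against 22% of all. Overlapping genes were not removed, and no source used here gives the strand setting.

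The longest run of called genes was of 7 lower genes over 441 kb on chromosome 12, namely SFSWAP, MMP17, ULK1, PUS1, EP400, DDX51 and NOC4L. Runs of 6 were PDCD6, AHRR, EXOC3, SLC9A3, CEP72 and TPPP, lower on chromosome 5, and TYMS, ENOSF1, YES1, METTL4, NDC80 and SMCHD1, lower on chromosome 18, where TYMS makes thymidylate for DNA and YES1 is the kinase gene with the large fall. A run of 6 higher genes lay on chromosome 4 over 579 kb, with UGT2B4, SULT1B1 and SULT1E1, which encode conjugating enzymes, followed by the milk and saliva protein genes CSN1S1, HTN3 and HTN1. Of the 7 tested secretory calcium-binding phosphoprotein genes, 5 were under 1 TPM in both 0 h libraries and entered the test through later ones. HTN1 was at 0.24 and 0.32 TPM at 0 h. The length of this run is therefore not read as a count of rises. On chromosome 11, 5 neighbours were higher, FXYD2, FXYD6, TMPRSS4, MPZL3 and MPZL2, and on chromosome 17, 5 were lower over 60.2 kb, PCYT2, SIRT7, MAFG, PYCR1 and NOTUM. These runs were picked for their length and were not tested.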
